A study of Homo sapiens with 15 samples.

Results

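Epithelial cells hold one another through E-cadherin, and cells in a mesenchymal state replace that junction with N-cadherin, vimentin filaments and a fibronectin matrix. A set of 10 genes that mark this axis was taken from the deposited table by symbol, out of its 25503 genes: CDH1, EPCAM, CDH2, VIM, FN1, ZEB1, SNAI2, MMP14, PLAUR and ITGA5. The libraries came from AsPC-1 and Capan-1, established human cell lines grown from pancreatic ductal adenocarcinoma. AsPC-1 was transfected with the control sequence si-NC (siNC, 3 libraries), with siRNA against B4GALT5 (siB4GALT5, 3 libraries) or with siRNA against B3GNT3 (siB3GNT3, 3 libraries). Capan-1 was transfected with si-NC or with siRNA against B3GNT3, 3 libraries each. B4GALT5 encodes a galactosyltransferase that makes lactosylceramide, and B3GNT3 a transferase that adds N-acetylglucosamine to glycan chains. The series asked how the pair affects MHC class I on tumour cells, so adhesion and matrix genes were not its stated subject. The number of siRNA sequences, the dose, the time after transfection and whether replicates were separate cultures could not be read from the sources used here, so p-values measure only the spread between these libraries.

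The members differ in role. CDH1 encodes E-cadherin and EPCAM a second epithelial adhesion molecule. CDH2 encodes N-cadherin, VIM the intermediate filament protein vimentin, and FN1 fibronectin. ZEB1 and SNAI2 (Slug) encode zinc-finger transcription factors that bind E-box sequences and repress CDH1. MMP14 encodes a membrane-bound matrix metalloproteinase that activates the MMP2 zymogen, PLAUR the urokinase receptor that holds plasminogen activation at the cell surface, and ITGA5 the chain that forms the fibronectin receptor with ITGB1. In pancreatic carcinoma these programmes are studied for invasion, and lines often show epithelial and mesenchymal genes side by side. In bulk RNA, a change in the level per cell and a change in the share of expressing cells cannot be told apart.

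All values are FPKM, fragments scaled by the authors to transcript length and library total. The siRNA targets were read first. B4GALT5 stood at 38.7, 35.8 and 35.5 FPKM in AsPC-1 siNC and at 8.70, 8.49 and 8.03 FPKM in siB4GALT5. B3GNT3 stood at 22.5, 23.8 and 23.3 FPKM in AsPC-1 siNC and at 2.53 and 2.50 FPKM in siB3GNT3 replicates 1 and 2. The library labelled AsPC-1 siB3GNT3 replicate 3 had 24.2 FPKM of its target, so it goes against its label and was set apart from the main tests. Its root mean square log2 distance was 0.141 to 0.150 from the siNC libraries and 0.453 and 0.465 from the other 2 siB3GNT3 libraries. In Capan-1, B3GNT3 went from 13.3, 13.2 and 13.7 FPKM with siNC to 1.32, 1.67 and 1.84 FPKM with siB3GNT3. B3GNT3 was itself higher with siB4GALT5 in AsPC-1, at 32.4, 30.8 and 27.9 FPKM (log2 fold change 0.37, adjusted p = 0.000892, and 0.657 with the set-apart library in its group).

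The lines were checked against pancreatic ductal markers. KRT8 and KRT18 were high in every library, at 496 to 743 and 632 to 935 FPKM in AsPC-1 and at 1199 to 1797 and 558 to 976 FPKM in Capan-1. KRT7 was at 0.173 to 0.714 FPKM in AsPC-1 and at 44.9 to 73.2 FPKM in Capan-1, so this defining marker was nearly absent from the libraries labelled AsPC-1. Single transcripts better known from fibroblasts were present, LUM at 69.6 to 91.8 FPKM in AsPC-1 and COL1A1 at 46.3 to 77.6 FPKM in Capan-1. LUM was at 5.63 to 10.1 FPKM in Capan-1, and COL1A1 at most 0.463 FPKM in AsPC-1. In any library DCN was at most 0.0287 FPKM, PDGFRA 0.0183, COL3A1 0.626 and PDGFRB 1.99. The fibroblast sums below are thus mostly LUM in AsPC-1 and mostly COL1A1 in Capan-1. PDGFRA, CDH5 and CD3E were listed at 0 in all 9 AsPC-1 libraries. The summed fibroblast markers were 80.6 to 92.6 FPKM in AsPC-1 siNC, 70.3 to 91.3 with siB4GALT5 and 79.8 to 86.8 with siB3GNT3, against 57.3 to 63.2 in Capan-1 siNC and 80.0 to 85.7 with siB3GNT3. The summed ductal markers, which include CDH1 and EPCAM, were 2022 to 2078 FPKM in AsPC-1 siNC, 1933 to 1949 with siB4GALT5 and 1641 to 2052 with siB3GNT3, and 4765 to 5005 in Capan-1 siNC against 3043 to 3892 with siB3GNT3. The summed leukocyte markers were 38.8 to 40.6 FPKM in AsPC-1 siNC, 48.4 to 51.5 with siB4GALT5 and 43.1 to 52.3 with siB3GNT3. In Capan-1 they were 160 to 174 FPKM with siNC and 172 to 213 with siB3GNT3. That sum was nearly all CD68, at 38.8 to 52.2 FPKM in AsPC-1 and 157 to 212 FPKM in Capan-1. PTPRC was at most 0.160 FPKM and CD3E at most 0.0740 FPKM in any library. LYZ was at most 0.0860 FPKM in AsPC-1 and at 1.24 to 2.94 FPKM in Capan-1. In AsPC-1 the siB3GNT3 ranges of these sums include the library set apart. The part of these markers in the results was not tested. A further 2 libraries lay away from their groups, AsPC-1 siB4GALT5 replicate 3 (0.242 and 0.261 from the other 2, which were 0.151 apart) and Capan-1 siB3GNT3 replicate 3 (0.312 and 0.271, against 0.180). Mitochondrial mRNAs took 23.8% to 24.8% of summed FPKM in AsPC-1 siNC, 18.1% to 19.5% with siB4GALT5, 20.1% and 19.7% with siB3GNT3, and 13.6% to 14.8% in Capan-1.

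MMP14, PLAUR and ITGA5 are the members whose rise with siB4GALT5 passed with the smallest adjusted p, and their promoters are shown so that the start sites of the 3 genes can be compared. The windows are 300 bases around each start, from RefSeq on GRCh38.p14, 5′ to 3′ on the gene's strand. Capitals mark the AP-1 letters TGAGTCA or their reverse complement TGACTCA. The windows lie at chr19:43670120-43670419 (minus strand), chr12:54419217-54419516 (minus strand) and chr14:22836335-22836634 (plus strand).
PLAUR: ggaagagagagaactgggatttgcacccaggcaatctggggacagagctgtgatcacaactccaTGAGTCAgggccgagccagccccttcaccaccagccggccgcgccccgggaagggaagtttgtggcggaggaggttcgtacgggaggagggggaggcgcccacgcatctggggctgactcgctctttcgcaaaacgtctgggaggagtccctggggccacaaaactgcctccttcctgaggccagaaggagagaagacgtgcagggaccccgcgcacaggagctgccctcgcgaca
ITGA5: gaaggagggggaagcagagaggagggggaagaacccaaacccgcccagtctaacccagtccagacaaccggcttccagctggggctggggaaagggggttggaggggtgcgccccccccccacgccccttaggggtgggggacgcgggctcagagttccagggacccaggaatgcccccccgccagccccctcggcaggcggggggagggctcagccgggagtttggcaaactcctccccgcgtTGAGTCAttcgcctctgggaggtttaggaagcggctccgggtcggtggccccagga
MMP14: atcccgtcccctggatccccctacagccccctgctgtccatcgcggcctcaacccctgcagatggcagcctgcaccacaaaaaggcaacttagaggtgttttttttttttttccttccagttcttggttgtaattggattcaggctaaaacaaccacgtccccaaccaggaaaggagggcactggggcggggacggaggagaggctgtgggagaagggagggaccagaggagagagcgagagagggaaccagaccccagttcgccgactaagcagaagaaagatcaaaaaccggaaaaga

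The AP-1 letters lay at position -186 from the start in PLAUR and at position -6 in ITGA5, and were not in the MMP14 window. They were found in 4.95% of all 35116 windows of that length. Of the 10 members, 7 matched the promoter table, with 14 windows in all, since ZEB1 has 7 starts. The AP-1 letters were in 2 of the 14. The E-box CAGGTG, or CACCTG on the other strand, was in 20.6% of all windows and in 2 of the 14, both of ZEB1. A match is a description of letters and not a site.

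In AsPC-1 with siNC the members did not line up on one side of the axis. VIM was the highest member at 1583 ± 23.5 FPKM (SD, n = 3), while CDH1 stood at 0.250, 0.173 and 0.207 FPKM and CDH2 at 0.0166, 0.00559 and 0.0385 FPKM. Neither cadherin was therefore above 1 FPKM. EPCAM was at 24.6 ± 1.38 FPKM, ZEB1 at 16.0 and SNAI2 at 22.2 ± 0.83. FN1 was low, at 0.704, 0.508 and 0.553 FPKM, beside its receptor chain ITGA5 at 59.6 ± 2.76 FPKM. Capan-1 with siNC held both cadherins, N-cadherin (CDH2) at 105 ± 1.52 FPKM and E-cadherin (CDH1) at 17.8 ± 0.79 FPKM, with VIM at 1610 ± 41.6 FPKM and FN1 at 51.3 ± 5.34 FPKM.

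**Figure D1:**
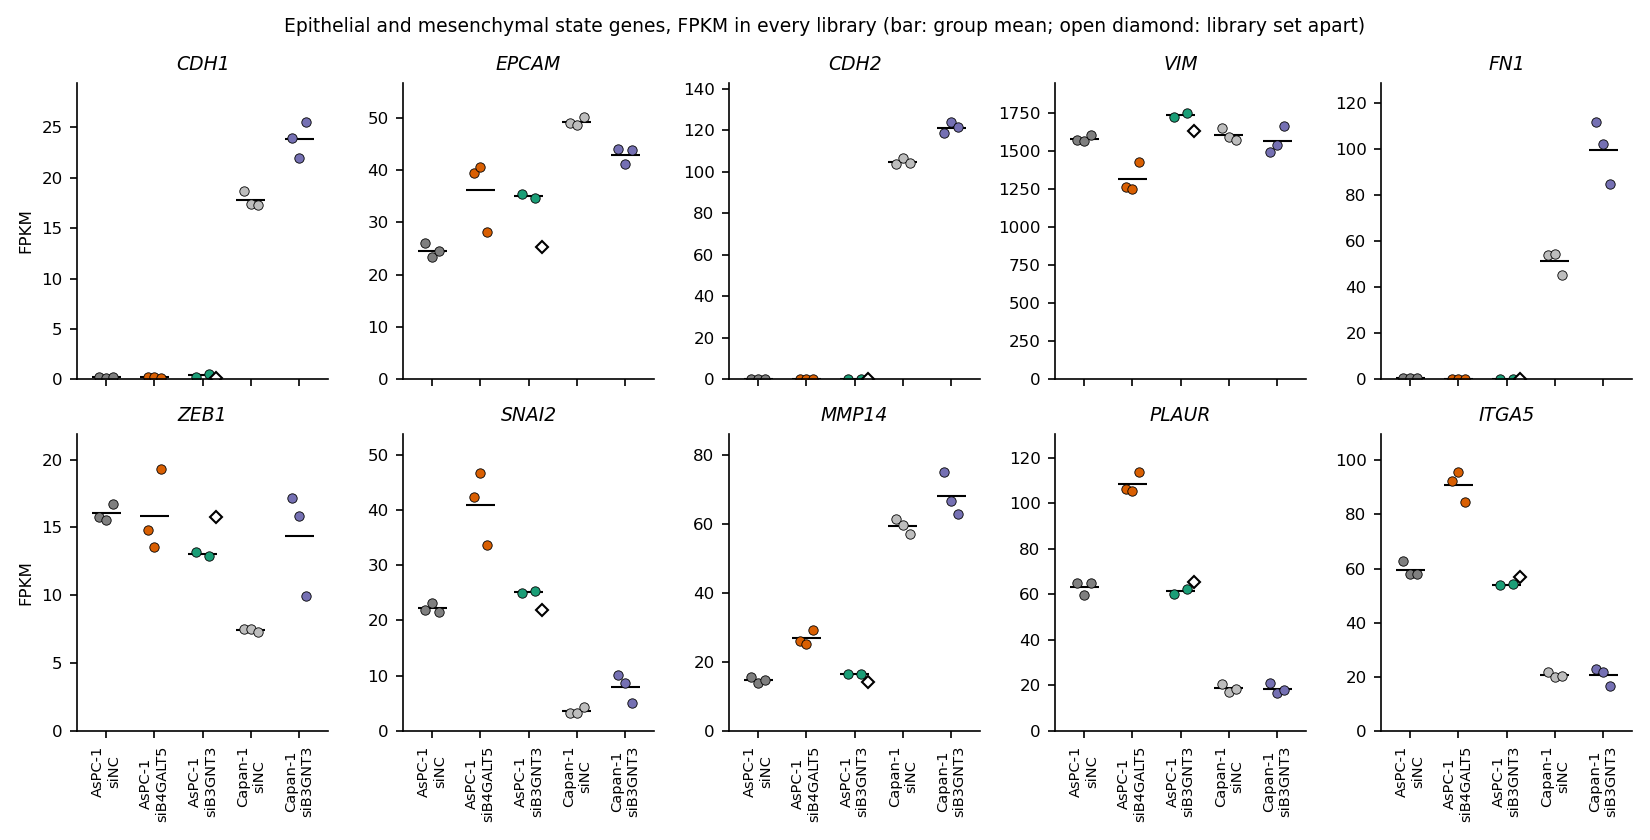
FPKM of each of the 10 members in every library, one panel per gene, grouped by line and siRNA; points are libraries, bars are group means and the open diamond is the library set apart. SNAI2, MMP14, PLAUR and ITGA5 are highest among AsPC-1 groups with siB4GALT5, and CDH1 and CDH2 are near 0 in all AsPC-1 libraries.

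The difference between the lines under siNC passed the test for 9 of the 10 members, where 78.1% of the 12236 genes tested passed, or 43.6% higher in Capan-1 and 34.5% lower. Of the members, 5 were higher and 4 lower, and CDH1, CDH2 and FN1 entered the fit through Capan-1 only and so had to differ. Higher in Capan-1 were CDH2 (log2 difference 6.70, adjusted p = 1.3e-18), FN1 (5.04, adjusted p = 7.93e-15), CDH1 (3.96, adjusted p = 1.99e-14), MMP14 (1.94) and EPCAM (0.97). Lower in Capan-1 were SNAI2 (-2.34, adjusted p = 2.03e-08), PLAUR (-1.71), ITGA5 (-1.49) and ZEB1 (-1.01, adjusted p = 3.4e-05). Both members that repress CDH1 and the 2 receptor genes were thus on the AsPC-1 side. Both cadherins, fibronectin and MMP14 were on the Capan-1 side. Outside the members, ZEB2, the paralogue of ZEB1, was higher in Capan-1 (1.48, adjusted p = 8.56e-08), at 1.87 against 0.0293 FPKM. TWIST2 (2.59) and FOXC2 (3.67) were also higher there and near 0 in AsPC-1 siNC. At these levels ZEB2, TWIST2 and FOXC2 passed the filter through Capan-1 and so had to differ. Of 12 tested transcription factors linked to the mesenchymal switch, 6 were higher in Capan-1 and 4 lower. The 6 include ZEB2, TWIST2 and FOXC2, and with AsPC-1 fitted alone only 8 of this list were tested. VIM did not pass (0.02, adjusted p = 0.702), and its sign turned with the scaling, to -0.06 with median-ratio scaling and 0.19 (adjusted p = 0.00588) with a common sum. That last scaling shifted the all-gene median from 0.09 to 0.23.

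With siB4GALT5 in AsPC-1, 7 members were high enough to be tested. SNAI2, MMP14, PLAUR, ITGA5 and EPCAM rose, VIM fell, and ZEB1 did not pass, so 6 of 7 were called where 58.2% of all 10775 tested genes were. By direction, 5 of 7 rose where 35.2% of all genes did, and 1 fell where 23.0% did. The median log2 fold change was 0.60 over these 7 and 0.06 over all genes. Of all called genes, 60.5% were higher with siB4GALT5, a split that moved to 49.1% with median-ratio scaling and to 70.9% with a common sum. CDH1, CDH2 and FN1 were under 1 FPKM in every AsPC-1 library and stayed out of the test.

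SNAI2, the Slug repressor, lies on GRCh38 chromosome 8, 48917604 to 48921740, minus strand. It stood at 21.9, 23.1 and 21.5 FPKM with siNC and at 42.3, 46.7 and 33.7 FPKM with siB4GALT5 (0.84 on the log2 scale, SE 0.10, adjusted p = 0.000103). Every siB4GALT5 library lay above every siNC library, with replicate 3 the lowest of them. ZEB1 (chromosome 10, 31318495 to 31529814, plus strand), the other repressor, showed no such separation. It stood at 15.8, 15.6 and 16.8 FPKM with siNC and at 14.8, 13.5 and 19.3 FPKM with siB4GALT5 (-0.03, SE 0.11, adjusted p = 0.842). Replicate 3 was above all siNC libraries and replicates 1 and 2 below them, and without replicate 3 the change was -0.17 (adjusted p = 0.0284). The antisense gene ZEB1-AS1 was at 1.46 to 4.29 FPKM and VIM-AS1 at 3.63 to 10.4 FPKM over all libraries, and the sources used here do not give the strand use of the counting.

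The cell-surface protease and receptor genes rose with the least scatter. MMP14 (chromosome 14, 22836557 to 22849027, plus strand) went from 15.7, 13.9 and 14.7 FPKM to 25.9, 25.3 and 29.4 FPKM (0.82, SE 0.07, adjusted p = 1.29e-05). PLAUR (chromosome 19, 43646095 to 43670547, minus strand) went from 64.8, 59.8 and 65.1 FPKM to 106, 105 and 114 FPKM (0.77, SE 0.05, adjusted p = 3.73e-06). The groups did not overlap for either gene, and here replicate 3 was the highest library of its group. ITGA5 (chromosome 12, 54395261 to 54419460, minus strand) went from 62.8, 58.0 and 58.1 FPKM to 92.3, 95.8 and 84.5 FPKM (0.60, SE 0.06, adjusted p = 2.83e-05). Its groups were also separate.

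The epithelial and filament members moved less. EPCAM (chromosome 2, 47345158 to 47387601, plus strand) went from 26.1, 23.3 and 24.5 FPKM to 39.5, 40.7 and 28.2 FPKM (0.52, SE 0.12, adjusted p = 0.00481). Replicate 3 sat close above siNC, and without it the change was 0.68. VIM (chromosome 10, 17228259 to 17237593, plus strand) went from 1574, 1566 and 1610 FPKM to 1265, 1252 and 1434 FPKM (-0.27, SE 0.05, adjusted p = 0.00194), with no overlap. CDH1 (chromosome 16, 68737225 to 68835548, plus strand) had 0.229, 0.290 and 0.156 FPKM with siB4GALT5, which overlaps siNC. FN1 (chromosome 2, 215360440 to 215436172, minus strand) had 0.279, 0.198 and 0.251 FPKM, below all siNC libraries. In a fit of 21749 genes with no filter on low values its change was -0.35 (adjusted p = 0.00292), all at under 1 FPKM. CDH2 (chromosome 18, 27950966 to 28177446, minus strand) was listed at 0 in 2 of the 3 siB4GALT5 libraries.

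**Figure D2:**
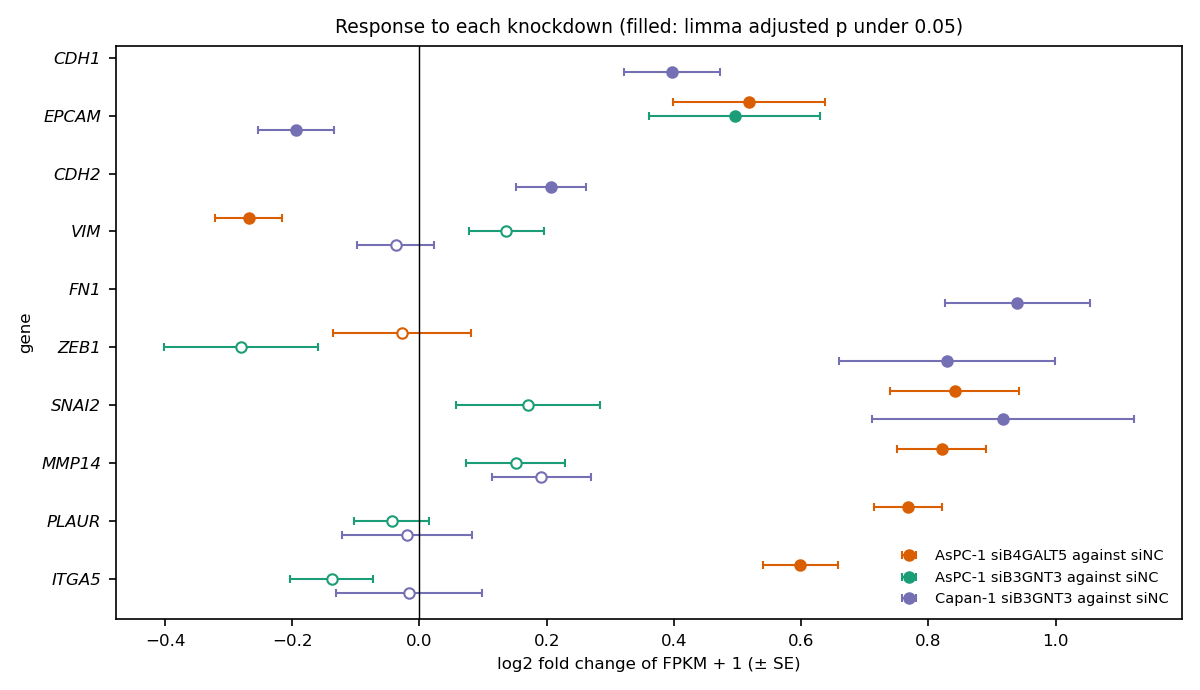
Log2 fold change on log2(FPKM + 1) for each member in each knockdown against siNC of its line, with the standard error; filled points passed an adjusted p under 0.05 and members not tested in a line are left out. In AsPC-1, siB4GALT5 gives 0.84 for SNAI2 and siB3GNT3 gives 0.17; in Capan-1, siB3GNT3 gives 0.92.

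With siB3GNT3 in AsPC-1 only EPCAM of the 7 tested members was called, 1 of 7 where 52.9% of all genes were, and 32.5% rose and 20.4% fell. The share of called genes that were higher was 61.5%, and 46.7% with median-ratio scaling or 72.2% with a common sum. The members' median log2 fold change was 0.14, against 0.07 over all genes. EPCAM stood at 35.4 and 34.7 FPKM in replicates 1 and 2, above all siNC libraries (0.50, SE 0.13, adjusted p = 0.0119), and at 25.3 FPKM in the set-apart library. With that library in its group the change was 0.34 (adjusted p = 0.19), and no gene passed limma's adjusted threshold, while 3011 of 10804 had an unadjusted p under 0.05, none of them a member. The call on EPCAM was also lost with no filter (adjusted p = 0.0558) and on leaving out siB3GNT3 replicate 1 or 2 (adjusted p = 0.0577 to 0.066).

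The other members had these values with siB3GNT3 in AsPC-1. SNAI2 had 24.9 and 25.3 FPKM (0.17, SE 0.11, adjusted p = 0.232), and 22.0 FPKM in the set-apart library. MMP14 had 16.4 and 16.6 FPKM (0.15, adjusted p = 0.133, set apart 14.2) and PLAUR 60.3 and 62.2 FPKM (-0.04, adjusted p = 0.559, set apart 65.5). None of the 3 reached its siB4GALT5 level in any of these libraries. ITGA5 had 53.9 and 54.3 FPKM (-0.14, adjusted p = 0.103, set apart 57.0), VIM 1729 and 1751 FPKM (0.14, adjusted p = 0.078, set apart 1637) and ZEB1 13.2 and 12.9 FPKM (-0.28, adjusted p = 0.0774, set apart 15.8). For these, as for SNAI2 and MMP14 but not PLAUR, the pair of libraries lay outside the siNC range. The set-apart library lay between the pair and siNC for VIM and ITGA5, and within siNC for ZEB1, SNAI2 and MMP14. Without AsPC-1 siB4GALT5 replicate 3, which enters this comparison through the estimate of spread only, 6 members were called at the same fold changes. These were EPCAM, VIM (adjusted p = 0.00642), ZEB1 (0.00194), SNAI2 (0.0215), MMP14 (0.0431) and ITGA5 (0.0278). In that fit 62.6% of all 10702 genes were called. CDH1 had 0.274 and 0.561 FPKM (set apart 0.109), CDH2 0 and 0.0114 FPKM, and FN1 0.233 and 0.262 FPKM (set apart 0.359; -0.35 and adjusted p = 0.00566 with no filter).

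Both knockdowns in AsPC-1 share their siNC libraries, so they were also set against each other directly. Here 5 of 7 members were called where 35.2% of all genes were, and 17.8% were higher with siB4GALT5 and 17.4% lower. PLAUR was higher with siB4GALT5 by a log2 difference of 0.81 (SE 0.06, adjusted p = 1.55e-05), ITGA5 by 0.74 (SE 0.07, adjusted p = 4.38e-05), MMP14 by 0.67 (SE 0.08, adjusted p = 0.000241) and SNAI2 by 0.67 (SE 0.11, adjusted p = 0.00181). VIM was lower (log2 difference -0.40, SE 0.06, adjusted p = 0.000812). All 5 stayed called with the set-apart library in the siB3GNT3 group, with adjusted p from 0.000305 for PLAUR to 0.00584 for VIM. EPCAM (0.02, adjusted p = 0.914) and ZEB1 (0.25, adjusted p = 0.136) did not pass. Each was called on leaving out 1 siB4GALT5 library, EPCAM without replicate 3 (0.19, adjusted p = 0.025) and ZEB1 without replicate 2 (0.35, adjusted p = 0.0411), and for ZEB1 every siB4GALT5 library was above the siB3GNT3 pair.

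The genes whose products bind or process the members' products were read in the same libraries. ITGB1, the beta chain that pairs with ITGA5, stood at 441, 432 and 442 FPKM with siNC, at 455, 443 and 409 FPKM with siB4GALT5 and at 124 and 115 FPKM with siB3GNT3. The set-apart library had 424 FPKM. The change was -0.01 (adjusted p = 0.881) with siB4GALT5 and -1.87 (SE 0.06, adjusted p = 1.05e-07) with siB3GNT3, or -1.26 (adjusted p = 0.168) with the set-apart library. The alpha chain thus rose with siB4GALT5 while the beta chain did not pass, and the beta chain fell with siB3GNT3 while the alpha chain did not pass. PLAU, the urokinase that PLAUR binds, stood at 62.4, 56.9 and 58.7 FPKM with siNC, at 63.0, 58.0 and 100 FPKM with siB4GALT5 (0.27, adjusted p = 0.192) and at 39.9 and 38.8 FPKM with siB3GNT3 (-0.58, adjusted p = 0.0255). With siB4GALT5 its rise was in replicate 3 alone, and without that library the change was 0.03. The siB3GNT3 call was lost in 7 of 18 alternatives, among them no filter (adjusted p = 0.104), a common sum (0.0528), 4 single libraries left out (0.0574 to 0.114) and the set-apart library in its group (-0.37, adjusted p = 0.272).

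FURIN, the convertase that cleaves the MMP14 propeptide, stood at 21.0, 21.7 and 20.1 FPKM with siNC. It had 46.5, 44.8 and 33.5 FPKM with siB4GALT5 (0.94, SE 0.11, adjusted p = 7.96e-05) and 9.48 and 10.2 FPKM with siB3GNT3 (-1.02, SE 0.12, adjusted p = 0.000127). The 3 groups did not overlap, and the direct difference between the knockdowns was 1.96 (adjusted p = 5.8e-06). The set-apart library had 20.4 FPKM, and with it the siB3GNT3 change was -0.69 (adjusted p = 0.168). TIMP2, which bridges MMP14 and MMP2, fell with siB4GALT5 (-0.22, adjusted p = 0.00168) and with siB3GNT3 (-0.26, adjusted p = 0.00146). With the set-apart library in its group the siB3GNT3 change of TIMP2 was -0.18 (adjusted p = 0.174). MMP2 was at most 0.13 FPKM in AsPC-1 and at 2.17 to 3.08 FPKM in Capan-1. CTNNB1, the catenin on the cadherin tail, fell by 0.28 with siB4GALT5 (adjusted p = 0.000404, and 0.115 with the set-apart library) and by 0.53 with siB3GNT3 (adjusted p = 2.02e-05, and 0.168 with that library).

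**Figure D3:**
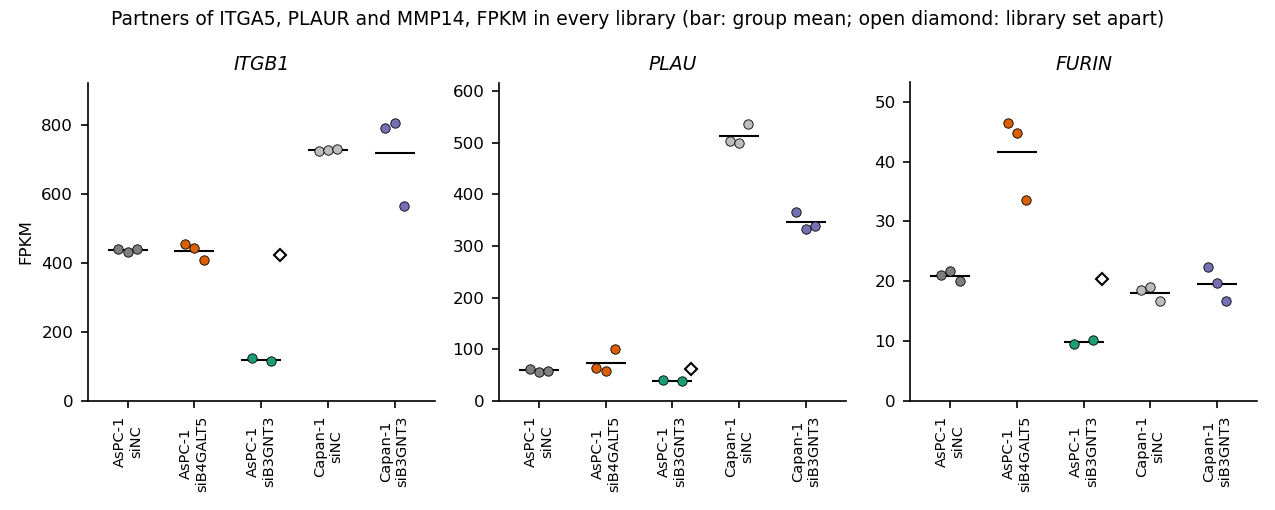
FPKM of ITGB1, PLAU and FURIN in every library by group; points are libraries, bars are group means and the open diamond is the library set apart. ITGB1 is at 124 and 115 FPKM with siB3GNT3 in AsPC-1 and at 791, 805 and 565 FPKM with it in Capan-1, and in AsPC-1 FURIN is high with siB4GALT5 and low with siB3GNT3.

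In Capan-1 all 10 members were tested with siB3GNT3. FN1, SNAI2, ZEB1, CDH1 and CDH2 rose and EPCAM fell, 6 of 10 where 32.9% of all 11493 genes were called, and 18.7% rose and 14.2% fell. The members' median log2 fold change was 0.20, against 0.02 over all genes. Of all called genes 56.8% were higher, and 46.1% with median-ratio scaling. Capan-1 had no siB4GALT5 libraries.

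FN1, the fibronectin gene, had the smallest adjusted p of the members. It stood at 54.1, 54.6 and 45.1 FPKM in the siNC libraries and at 112, 102 and 84.9 FPKM with siB3GNT3 (0.94, SE 0.11, adjusted p = 0.000947). The groups were far apart, with the third replicate lowest in both. The repressors followed: ZEB1 went from 7.54, 7.48 and 7.28 FPKM to 17.2, 15.8 and 9.98 FPKM (0.83, SE 0.17, adjusted p = 0.00863), and SNAI2 from 3.29, 3.29 and 4.25 FPKM to 10.1, 8.63 and 5.08 FPKM (0.92, SE 0.21, adjusted p = 0.0118). In both genes siB3GNT3 replicate 3 lay nearest to siNC without reaching it, and without it the changes were 1.05 and 1.17. The SNAI2 call was lost with no filter (adjusted p = 0.0632) and without siNC replicate 1 (adjusted p = 0.0504). ZEB2, the paralogue of ZEB1, went from 1.79, 1.92 and 1.90 FPKM to 4.75, 3.69 and 2.49 FPKM (0.66, adjusted p = 0.0163), again lowest in replicate 3. Its call was lost in 5 of 13 alternatives, 4 of them single libraries left out, and it was at most 0.0955 FPKM in AsPC-1.

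Both cadherins rose together with the repressors. CDH1 went from 18.7, 17.4 and 17.4 FPKM to 23.9, 22.0 and 25.5 FPKM (0.40, SE 0.08, adjusted p = 0.00636), and kept its call in all 14 alternatives run. CDH2 went from 104, 107 and 104 FPKM to 119, 124 and 121 FPKM (0.21, SE 0.05, adjusted p = 0.0217). Its groups did not overlap, yet the call was lost in 6 of 14 alternatives, among them median-ratio scaling (adjusted p = 0.06). EPCAM went from 49.0, 48.6 and 50.2 FPKM to 44.0, 41.1 and 43.8 FPKM (-0.19, SE 0.06, adjusted p = 0.039), and was not called in 9 of 14 alternatives. Thus the 2 epithelial adhesion genes had opposite signs in Capan-1.

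The remaining members did not pass in Capan-1. VIM had 1657, 1598 and 1577 FPKM in the controls, then 1499, 1543 and 1668 FPKM after knockdown (-0.04, SE 0.06, adjusted p = 0.657). PLAUR had 20.5, 17.3 and 18.4 FPKM and then 21.0, 16.5 and 17.9 FPKM (-0.02, SE 0.10, adjusted p = 0.898), and ITGA5 21.6, 20.0 and 20.2 FPKM and then 23.1, 21.9 and 16.6 FPKM (-0.02, SE 0.12, adjusted p = 0.925). The groups overlapped for these 3, and a common sum turned their signs. MMP14 had 61.5, 59.8 and 57.2 FPKM and then 75.2, 66.6 and 62.8 FPKM (0.19, SE 0.08, adjusted p = 0.0926). Its groups were separate, and without siB3GNT3 replicate 3 the change was 0.25 (adjusted p = 0.0112). Among the partners, PLAU fell from 503, 501 and 536 FPKM to 366, 334 and 340 FPKM (-0.57, adjusted p = 0.000613), while ITGB1 had 724, 728 and 732 FPKM and then 791, 805 and 565 FPKM (-0.03, adjusted p = 0.856), with replicate 3 low.

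The siB3GNT3 response was compared between lines as an interaction over the 14 libraries. CDH1, CDH2 and FN1 entered this fit through their Capan-1 levels only, so in AsPC-1 the scale log2(FPKM + 1) leaves them little room to move, and for CDH2 the interaction (0.23) restates the Capan-1 change (0.21). The interaction passed for 5 members, EPCAM, CDH2, FN1, ZEB1 and SNAI2, and for 32.8% of all genes (13.8% higher in Capan-1, 19.0% lower), and the count is given as a description. Of all genes that passed, 42.2% were higher in Capan-1, and 53.0% with median-ratio scaling. FN1 differed by 1.29 (SE 0.15, adjusted p = 3.85e-05) and ZEB1 by 1.11 (SE 0.23, adjusted p = 0.00273), both higher in Capan-1. SNAI2 differed by 0.75 (SE 0.26, adjusted p = 0.0441) and CDH2 by 0.23 (SE 0.08, adjusted p = 0.0399), both near the threshold and lost in 13 and 14 of 24 alternatives run, and EPCAM by -0.69 (SE 0.16, adjusted p = 0.00439). With the set-apart library in its group FN1 (adjusted p = 0.000216) and ZEB1 (adjusted p = 0.0135) kept their calls, while EPCAM (0.0899), CDH2 (0.0995) and SNAI2 (0.0614) did not. The interaction did not pass for CDH1 (0.18, adjusted p = 0.313), VIM (-0.17, 0.131), MMP14 (0.04, 0.818), PLAUR (0.02, 0.903) or ITGA5 (0.12, 0.55).

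Ordered by group mean, the members fell into several patterns. SNAI2 was highest in AsPC-1 with siB4GALT5 and lowest in Capan-1 with siNC, and no neighbouring groups overlapped. PLAUR and ITGA5 had the same top group, and their 2 Capan-1 groups overlapped at the bottom. PLAUR also overlapped between AsPC-1 siNC and siB3GNT3. FN1 was highest in Capan-1 with siB3GNT3, and its siB4GALT5 and siB3GNT3 groups in AsPC-1 overlapped. The EPCAM ranges of siB4GALT5 and siB3GNT3 overlapped in AsPC-1, and CDH1 and CDH2 overlapped between neighbouring AsPC-1 groups in this order, although the siB3GNT3 pair of CDH1 (0.274 and 0.561 FPKM) lay above siNC. ZEB1 overlapped between neighbours from AsPC-1 siNC at the top down to AsPC-1 siB3GNT3, with Capan-1 siNC alone below. MMP14 was ordered from Capan-1 siB3GNT3 down to AsPC-1 siNC with no overlap between neighbours. VIM had its extremes in AsPC-1, highest with siB3GNT3 and lowest with siB4GALT5, with the 3 groups between them overlapping.

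Of the members, EPCAM and SNAI2 were called in at least 2 of the 3 comparisons with siNC, and their nearest profiles were sought over the 14 libraries and 10068 genes. Likeness was the root mean square difference of log2(FPKM + 1), centred within each line. Nearest to EPCAM were EXOSC6 (0.0815), ZFPM2-AS1 (0.0832) and LSM1 (0.0841), against 0.228 for the profile of EPCAM itself. Among the nearest to SNAI2 were SLC6A9 (0.110) and CCDC71L (0.132), against 0.463.

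The wider gene lists of these programmes were read against the same backgrounds. Under siNC, 19 of 26 epithelial junction genes were higher in Capan-1 and 4 lower (median 1.41). Of 28 mesenchymal cytoskeleton and matrix genes, 22 were higher and 5 lower (median 1.82). Over all genes tested, 43.6% were higher and 34.5% lower. With AsPC-1 fitted alone, only 19 and 17 genes of these lists were high enough to be tested. Genes that entered the fit of both lines through Capan-1 only had to be higher there, so these counts are a description. ESRP1, a splicing regulator of epithelial cells, was at most 0.172 FPKM in AsPC-1 and 0.384 FPKM in Capan-1, and GRHL2, an epithelial transcription factor, at most 0.00318 and 2.48 FPKM. CTNND1, the p120 catenin gene, was at 0.344 to 1.07 FPKM over all libraries. With siB4GALT5 in AsPC-1, 6 of 8 tested transcription factors linked to the mesenchymal switch rose and 1 fell, with a median of 0.74. KLF4, a factor that also maintains epithelial genes, went from 17.1 to 58.2 FPKM (1.70, adjusted p = 6.77e-07), SOX9 from 15.7 to 29.4 (0.86) and ETS1 from 32.9 to 54.1 (0.70). Of 19 epithelial junction and identity genes 9 rose and 2 fell, with the tight-junction gene CLDN1 going from 2.17 to 10.2 FPKM (1.80, adjusted p = 2.51e-06) and ELF3 from 5.38 to 9.69 FPKM (0.74). The list's called share of 57.9% was at the 58.2% of all genes.

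Against the 35.2% of all genes that rose and the 23.0% that fell, 10 of 17 mesenchymal cytoskeleton and matrix genes rose and 2 fell with siB4GALT5. LAMB3, a laminin chain of epithelial basement membrane, went from 137 to 437 FPKM (1.66), TNC changed by 0.61 and TGFBI by 0.54. Of 14 pericellular proteolysis genes 6 rose and 3 fell, and PLAT, the tissue plasminogen activator, went from 35.0 to 10.3 FPKM (-1.66) while its inhibitor SERPINE2 rose (0.87). Of 21 integrin and focal adhesion genes 10 rose and 7 fell, with the syndecan SDC4 going from 35.1 to 73.8 FPKM (1.05), the kinase PTK2 higher (0.51) and ACTN4 lower (-0.53). Of 20 TGF-beta signalling genes 9 rose and 5 fell, with the pseudoreceptor BAMBI higher (1.05), SMURF1 higher (0.53) and the target ID1 lower, from 110 to 63.4 FPKM (-0.79). The called shares were 70.6% of the matrix list, 64.3% of the proteolysis list, 81.0% of the adhesion list and 70.0% of the TGF-beta list, against 58.2%. With the set-apart library in the siB3GNT3 group, which enters here through the spread only, 39.2% of all 10804 genes were called. Of these, 2609 rose and 1630 fell. In that fit 5 matrix genes rose and 1 fell, and 8 adhesion genes rose and 2 fell. There 5 TGF-beta genes rose and 3 fell, and 7 epithelial genes rose and 1 fell.

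With siB3GNT3 in AsPC-1 the list counts, higher and then lower, were 9 and 3 of 19 epithelial genes, 5 and 2 of 8 transcription factors, 8 and 6 of 17 matrix genes, 3 and 5 of 14 proteolysis genes, 5 and 9 of 21 adhesion genes, and 7 and 5 of 20 TGF-beta genes, beside 32.5% higher and 20.4% lower over all genes. CLDN1 reached 15.1 FPKM (2.34) and ELF3 rose by 0.92. SOX9 (0.74) and FOXC1 (1.01) rose, and FOSL1, an AP-1 subunit, fell from 280 to 175 FPKM (-0.67). LAMB3 (1.31), TNC (0.88), NT5E (0.76), SERPINE2 (1.21), SDC4 (1.19), ITGB4 (0.83), SKI (0.76) and BAMBI (1.02) rose, and PLAT (-1.01), PTK2 (-0.53) and ID1 (-0.96) fell. None of these list calls held with the set-apart library in its group, where adjusted p was 0.168 for these genes. Between the knockdowns, PTK2 (1.04) and ETS1 (1.13) were higher with siB4GALT5, and the receptor kinase AXL (-0.88) and ITGB4 (-0.56) higher with siB3GNT3.

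Over all genes in Capan-1, 18.7% rose and 14.2% fell with siB3GNT3. There 8 of 21 TGF-beta signalling genes rose and 1 fell, among them the receptors TGFBR2, from 32.8 to 63.9 FPKM (0.93), and TGFBR3 (0.85), and the SMAD repressor SKI (0.62). Of 12 transcription factors 5 rose and 2 fell: SOX4 went from 19.3 to 39.0 FPKM (0.98), FOSL1 from 102 to 48.2 FPKM (-1.06, adjusted p = 0.000109) and SOX9 was lower (-0.65). Of 27 matrix genes 7 rose and 6 fell, with the collagens COL5A1 (0.83) and COL1A1 (0.59) higher and the hyaluronan receptor CD44 lower, from 98.8 to 56.7 FPKM (-0.79). Of 26 epithelial genes 4 rose and 2 fell, ELF3 higher (0.47) and the junction genes F11R (-0.53) and CLDN4 (-0.29) lower. Of 17 proteolysis genes 5 rose and 4 fell (MMP15 0.65, SERPINE2 0.27, ST14 -0.33), and of 21 adhesion genes 4 rose and 2 fell (ITGB8 1.06, SDC4 0.58, ACTN4 -0.46). The epithelial list (23.1% called) and the adhesion list (28.6%) were below the 32.9% of all genes. Without siB3GNT3 replicate 3 the counts in these 6 lists were 9 and 3, 6 and 2, 10 and 8, 8 and 4, 6 and 4, and 6 and 3. In that fit the share called over all 11338 genes was also larger, at 50.4%, with 3005 higher and 2710 lower.

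**Figure D4:**
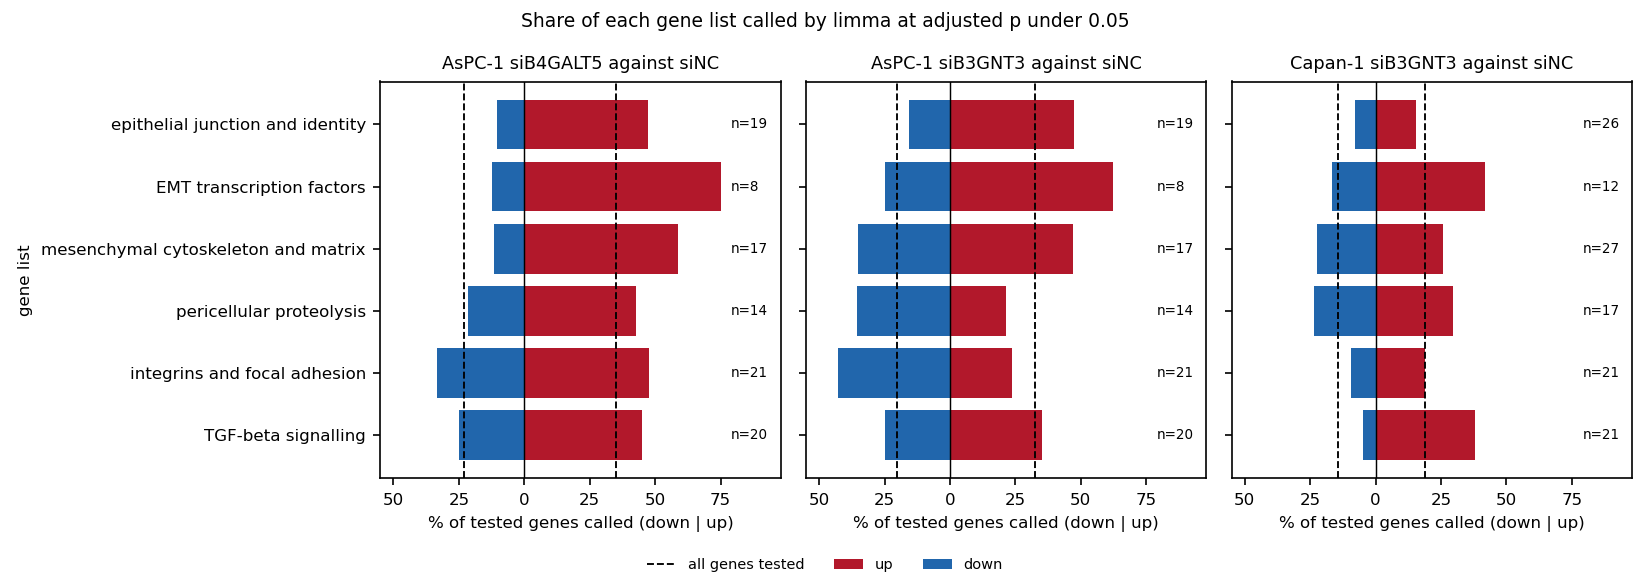
Percent of the tested genes of each list that rose or fell in each knockdown against siNC; dashed lines give the percent over all genes tested. With siB4GALT5 the share that rose over all genes is 35.2%, with siB3GNT3 in AsPC-1 32.5% and in Capan-1 18.7%.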

How the data were processed

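RNA was sequenced from 15 libraries. The authors deposited FPKM per gene, and per the submitters' processing notes Bowtie2, RSEM 1.3.1 and DESeq2 1.4.5 were used with GRCh38, with roles not given in the sources used here. Library sizes are unknown. Steps between low values put relative depth at 0.949 to 1.03.

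FPKM were used as deposited. Tests ran on log2(FPKM + 1), whose fold changes understate those of low genes, with limma 3.58.1 in R 4.3.3 (intensity trend), keeping genes that reached FPKM 1 in 3 or more libraries. P-values were adjusted by Benjamini-Hochberg over all tested genes, and calls took an adjusted p under 0.05. AsPC-1 (8 libraries) and Capan-1 (6) were fitted apart, and line differences over 14. AsPC-1 siB3GNT3 replicate 3 was set apart and put back as an alternative. The script was tested on simulated data.

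Named were all members, their targets and partners, and per list, for each comparison with siNC and the interaction, up to 3 genes of smallest p with a group mean of at least 5 FPKM, with a few from the direct comparison of the knockdowns. Some genes that the rule names are not reported here. Members and lists were chosen with earlier results of these data known. Alternatives were other pseudocounts, filters, scalings, a replicate block and leaving out libraries. Leaving out the 2 libraries far from their groups together was chosen after seeing the data.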

Additional observations from a re-analysis of the deposited data

Results flagged for a closer look

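For the genes below the log2 change with siB3GNT3 differed between the lines by the test of the difference itself, the interaction in limma over 14 libraries (Capan-1 minus AsPC-1), which 32.8% of all genes passed. Among the members these were FN1 (1.29), ZEB1 (1.11), SNAI2 (0.75), CDH2 (0.23) and EPCAM (-0.69), of which SNAI2 and CDH2 lost the call in 13 and 14 of 24 alternatives. FN1, CDH2 and ZEB2 were under 1 FPKM in AsPC-1, where the added constant compresses a fold change, so for CDH2 and ZEB2 the value restates the Capan-1 change. Among the partners they were ITGB1 (1.84, adjusted p = 3.55e-06), CTNNB1 (0.50, adjusted p = 0.000636) and ZEB2 (0.67, adjusted p = 0.016, and 0.0587 with a pseudocount of 0.1). Among the list genes that the naming rule picks, SOX4 (1.16), TGFBR3 (1.35), FERMT2 (1.18), FURIN (1.12), ID1 (0.83) and PLAT (0.75) were higher in Capan-1. LAMB3 (-2.09), CLDN1 (-1.99), SOX9 (-1.38), CD44 (-1.04), TNC (-1.03), BAMBI (-0.96), SERPINE2 (-0.94), MARVELD2 (-0.81), ITGB4 (-0.66), SDC4 (-0.61) and FOSL1 (-0.39) were lower. The AsPC-1 arm of each rests on 2 siB3GNT3 libraries. With the third library labelled siB3GNT3, whose target was not reduced, FN1, ZEB1, ZEB2, SOX4, SOX9, LAMB3, CD44, FERMT2 and TGFBR3 stayed past the threshold and the others did not, among them ITGB1 (1.23, adjusted p = 0.126), CTNNB1 (0.33, adjusted p = 0.214) and FURIN (0.79, adjusted p = 0.111). Groups of 3 libraries are too small for a rule on single outlying libraries.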

How the results depend on the processing

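The siB3GNT3 comparison in AsPC-1 depended most on the processing. Its 1 called member, beside 52.9% of all genes, became 3 with median-ratio scaling (52.6% of all genes) and 3 with a common sum (55.9%). The count was 2 with the replicate block (50.8%), 5 with only the 2 groups compared (62.6%) and 0 with the set-apart library. With that library called genes went from 5697 to 0, from 3789 to 1716 between the knockdowns and from 4009 to 1204 for the interaction, whose called members went from 5 to 2. Leaving out 1 library at a time, called genes and members ranged from 5366 to 6863 and 6 to 7 with siB4GALT5, 4071 to 6700 and 0 to 6 with siB3GNT3 in AsPC-1, 2134 to 4865 and 5 to 6 between the knockdowns, 2069 to 5715 and 3 to 7 in Capan-1, 2839 to 5036 and 3 to 7 for the interaction, and 9070 to 9798 and 9 for the lines. The extremes 6863, 6700 and 4865 were without AsPC-1 siB4GALT5 replicate 3 and 5715 without Capan-1 siB3GNT3 replicate 3. Both left out, the interaction called 5842 genes and 7 members.

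Signs turned only for values that were not called, except CLDN1 between the knockdowns (-0.54, and 0.17 with the set-apart library). With a common sum ZEB1 was at 0.0565 and ITGB1 at 0.0789 with siB4GALT5, and PLAUR at 0.0448 with siB3GNT3 in AsPC-1. In Capan-1 a common sum gave VIM 0.0032, PLAUR 0.0192, ITGA5 0.0228, ITGB1 0.0070 and CTNNB1 0.0148, and rescaling without mitochondrial mRNAs PLAUR 0.0084, ITGA5 0.0119 and CTNNB1 0.0036. VIM between lines was -0.0603 with median-ratio scaling. For the interaction, CDH1 was -0.28 with a pseudocount of 0.1, MMP14 -0.0031 and PLAUR -0.0255 with a common sum, and PLAUR -0.0077 with the set-apart library. Leaving out single libraries, values with turned signs ranged from -0.168 to 0.0735 for ZEB1 and -0.0412 to 0.0350 for ITGB1 with siB4GALT5, and from -0.0701 to 0.187 for EPCAM between the knockdowns. In Capan-1 they ranged from -0.112 to 0.0549 for PLAUR, -0.10 to 0.12 for ITGA5, -0.12 to 0.13 for ITGB1 and -0.0888 to 0.0316 for CTNNB1, and for the interaction from -0.0312 to 0.0966 for MMP14 and -0.0678 to 0.0986 for PLAUR. The cause was not tested.

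Whether replicate numbers pair the samples could not be decided from so few libraries. Same-numbered libraries had correlations of deviations under 0.1. Between AsPC-1 siNC and siB4GALT5 these were 0.0323, 0.0599 and 0.0412, and -0.0405 to -0.00106 for libraries of unlike number. In Capan-1 they were -0.0362 to 0.0361, and -0.138 to 0.106 for libraries of unlike number. With the replicate block 6285 genes and 6 members were called with siB4GALT5, 5470 and 2 with siB3GNT3 in AsPC-1, 3623 and 5 between the knockdowns, 3311 and 4 in Capan-1, 9513 and 9 between lines, and 3940 and 4 for the interaction.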
